A study of Mus musculus with 58 samples.

Results

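Ruxolitinib blocks the kinases JAK1 and JAK2, and here its effect was read in livers of old mice whose hepatocytes had been given extra Myc, a transcription factor that drives cell growth and can cause liver cancer. The comparison holds 25 of the 58 libraries of the series, 14 labelled old Myc with ruxolitinib and 11 labelled old Myc with vehicle, chosen by these labels alone. Every mouse in it was a male of the strain C57BL6/J that had received AAV8-TBG-Myc, an adeno-associated virus in which the TBG promoter restricts Myc to hepatocytes, so other liver cells were not targeted. Vehicle, or ruxolitinib at 45 mg/kg, was given by mouth through a tube 2 times daily, except at weekends, over 30 days. The first sequencing batch holds 4 treated and 6 vehicle livers of mice aged 25 months, and the second holds 10 treated and 5 vehicle livers of mice aged 24 months, so age and batch cannot be told apart. PolyA RNA of whole liver was sequenced as pairs of 75 bp reads. The 17 old livers with AAV8-TBG-mApple, a virus carrying a red fluorescent protein as control, serve below only for the test of whether the drug difference depended on Myc.

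Cytokine receptors signal through Janus kinases (JAKs), which phosphorylate STAT proteins that then enter the nucleus. In liver, type I interferon acts through factors that include STAT2 and IRF9 on genes with an interferon-stimulated response element, interferon gamma induces a family of GTPases, and growth hormone acts through JAK2 and STAT5 on feedback inhibitors such as Socs2 and Cish and on the genes that differ between male and female liver. Interleukin 6 reaches acute-phase genes through STAT3.

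The libraries held 10.68 to 40.98 M counts in exons (M, 1000000), with medians of 18.65 M in treated and 16.39 M in vehicle livers. Albumin (Alb), the main secreted protein of hepatocytes, took 5.97% to 14.8% of the counts, as whole liver does. Levels are given below as counts per 1000000 (CPM) after scaling by the trimmed mean of M-values. Libraries 860 and 861, both treated and of the first batch, stood apart: Ptprc, which marks all leukocytes, was at 128 and 108 CPM, against 14.6 to 26.9 CPM in the 6 vehicle livers of that batch. The mean level of 12 leukocyte markers, as log2(CPM + 1), was 7.60 in library 860 against 4.06 to 4.69 in those vehicle livers, and their hepatocyte markers were lowest, at 10.2 and 10.1. Library 868 had a smaller excess of leukocyte RNA, with Ptprc at 35.6 CPM. In bulk tissue fewer cells of a type and less RNA per cell cannot be told apart.

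The delivered gene was not called as different between the groups. Myc (chromosome 15, mm10) was at 25.4, 33.7 and 116 CPM (lowest, median and highest) in treated livers and at 6.90, 39.1 and 137 CPM in vehicle livers. The groups overlapped almost fully, and the log2 fold change was -0.06 ± 0.25 (SE; edgeR adjusted p = 0.93). Library 870, labelled Myc with vehicle, held the value of 6.90 CPM, whereas the other 5 vehicle livers of its batch had 49.0 to 137 CPM. Vector and endogenous Myc transcripts are not separated in these counts.

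Across the genome, few genes passed the threshold with edgeR, and almost all of those fell. With both batches in a model that has a batch term, 75 of 13749 tested genes passed the threshold (edgeR quasi-likelihood, Benjamini-Hochberg adjusted p below 0.05), which is 0.545% of them. Lower with ruxolitinib were 69 genes (0.502%) and higher were 6 (0.0436%). At an unadjusted edgeR p below 0.05 there were 1925 genes. Counts depended on the method: DESeq2 called 168 genes, 53 of them higher, and limma voom 201, 22 of them higher. Of the 75, 31 belonged to the lists of genes induced by type I interferon or interferon gamma, and all 31 fell. A further 7 belonged to the growth hormone lists, of which 6 fell and 1 rose. The p-values measure the spread between libraries, since the labels do not say more about how replicates were made. These genes were chosen by the fit over both batches, so their sign within a batch is no separate test. Of the 75 called genes, only Gm16551, a predicted gene named after its values were seen, had groups that did not overlap over all 25 livers. Overlap, here and within a batch below, was looked at among called or named genes and not over all tested genes.

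Among the feedback inhibitors of cytokine receptors, Socs2, Cish and Usp18 fell. Socs2 (chromosome 10, 95411490 to 95416857), an inhibitor of growth hormone receptor signalling that STAT5 induces, had the smallest p of all genes. It was at 1.55, 2.85 and 7.18 CPM (lowest, median and highest) in treated livers and at 3.87, 15.0 and 42.8 CPM in vehicle livers. The groups overlapped only in part, as 10 of 14 treated livers lay below every vehicle liver. Its log2 fold change was -2.47 ± 0.30 (edgeR adjusted p = 0.000141) and -2.72 without libraries 860 and 861.

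Cish, which binds activated receptors and is likewise a STAT5 target, was at 0.717, 4.45 and 29.7 CPM in treated and 8.26, 22.5 and 46.0 CPM in vehicle livers. All but 2 treated livers, 12 of 14, were below every vehicle liver, and library 1152 of the treated group reached 29.7 CPM. Its log2 fold change of -2.09 ± 0.44 (edgeR adjusted p = 0.0202) was -1.87 without libraries 860 and 861, where the adjusted p was 0.0502. Usp18, which holds the type I interferon receptor in check, fell by 1.87 ± 0.33 on the log2 scale (edgeR adjusted p = 0.00439). The other 15 tested members of this list of 18 did not pass the threshold, and the list's median was 0.01, against 0.01 over all tested genes. Socs1 was at -0.98 ± 0.33 (edgeR adjusted p = 0.23) and Socs3, a STAT3 target, at -0.50 ± 0.31 (edgeR adjusted p = 0.45).

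**Figure D1:**
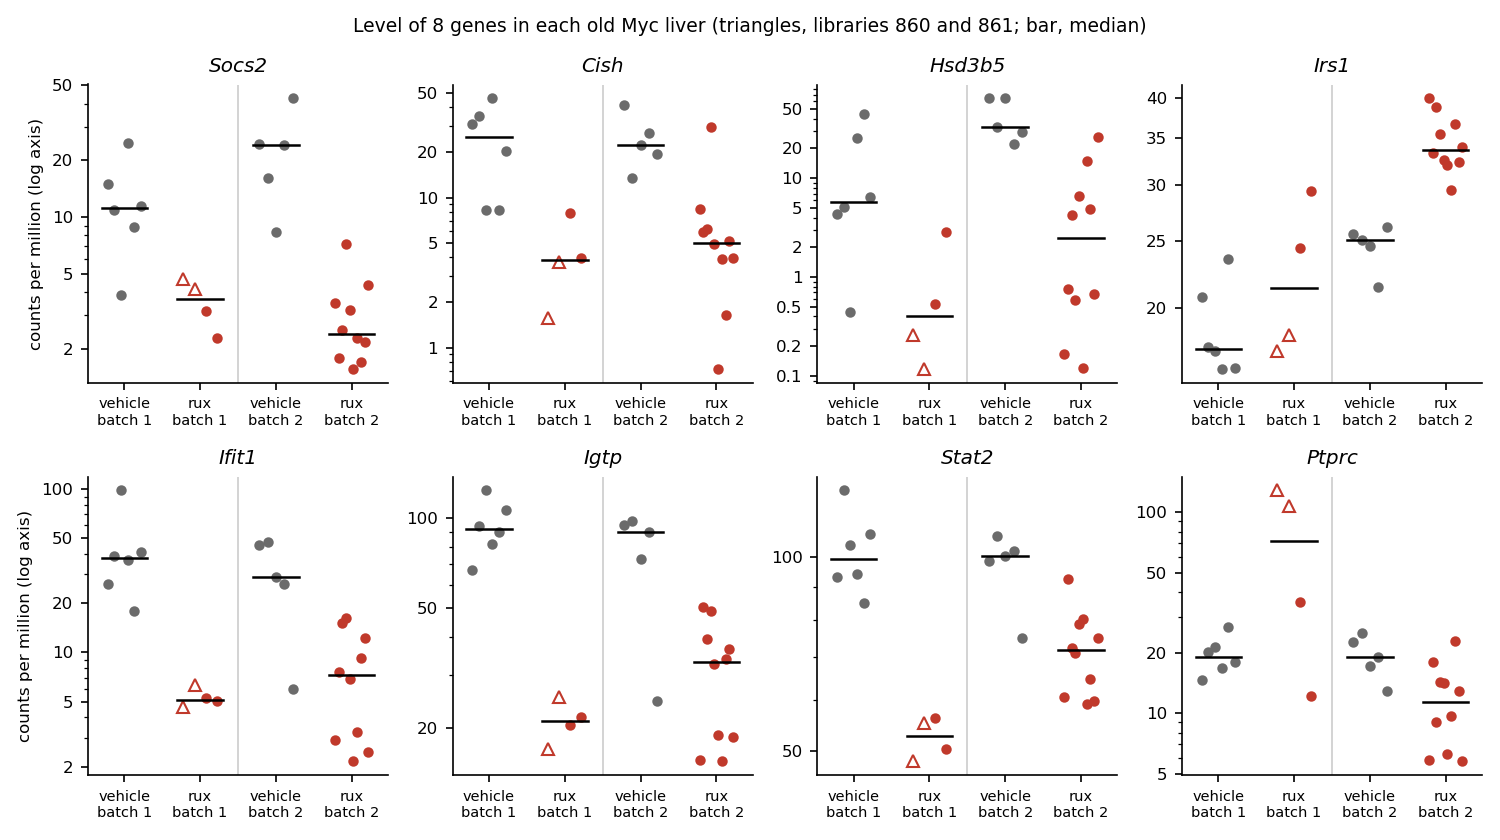
Level of 8 genes in each of the 25 old Myc livers, in CPM on a log axis, by treatment (rux, ruxolitinib) and sequencing batch; triangles are libraries 860 and 861 and bars are medians. Socs2 and Irs1 separate the groups fully in the second batch, Igtp, Ifit1 and Cish do so in the first, and Ptprc is raised in libraries 860, 861 and 868. Socs2, Irs1, Igtp, Ifit1 and Cish were called on these same libraries, and separation was not counted over all tested genes.

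The kinases and receptors upstream of these inhibitors did not pass the threshold. Of 25 tested members of the list of JAK kinases and receptors 0 were called by edgeR, with 3 in each direction at an unadjusted p below 0.05, and their median was 0.12. Jak1 was at 0.07 ± 0.08 and Jak2 at 0.07 ± 0.10. Without libraries 860 and 861 a single member passed, Il6st, the signalling chain shared by the interleukin 6 family, which was lower by -0.50 (edgeR adjusted p = 0.0111). With all libraries it was at -0.39 (edgeR adjusted p = 0.153).

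STAT2 and IRF9, which act together on type I interferon targets, both had lower transcripts with ruxolitinib, and the median of the 14 tested members of the STAT and IRF list was -0.08. Stat2 was at 48.1, 62.7 and 92.5 CPM in treated livers and 74.9, 101 and 127 CPM in vehicle livers. Of the treated livers 11 lay below every vehicle liver, and the log2 fold change was -0.66 ± 0.10 (edgeR adjusted p = 0.00138). Irf9, the DNA-binding partner, changed by -1.02 ± 0.18 (edgeR adjusted p = 0.0039). Stat5a (0.10 ± 0.10) and Stat5b (-0.06 ± 0.09), which carry the growth hormone signal, were not called.

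The list of genes induced by type I interferon held more of the genes that fell than any other list. Of 58 tested members 24 fell and 0 rose, while 29 of the 69 genes that fell were on no list. Of the 58, 57 had a negative fold change, and the median was -0.83. Without libraries 860 and 861, 28 of 58 fell and the median was -0.91. Ifit1, whose protein binds viral RNA, was at 2.15, 5.80 and 16.2 CPM in treated and 5.96, 36.8 and 98.3 CPM in vehicle livers. The vehicle livers other than library 1148 were all above the highest treated liver, 10 of 11, and the log2 fold change was -2.39 ± 0.39 (edgeR adjusted p = 0.00272).

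Rsad2, which blocks the budding and replication of viruses, was at 3.44, 9.45 and 31.2 CPM in treated and 9.72, 42.2 and 160 CPM in vehicle livers. Of the vehicle livers 8 of 11 were above every treated liver, and the log2 fold change was -2.08 ± 0.45 (edgeR adjusted p = 0.0285). Rsad2 was no longer called without libraries 860 and 861 (-1.99, edgeR adjusted p = 0.0726). Smaller decreases were seen for the sensors and effectors of viral RNA: Ddx58, which encodes RIG-I, changed by -0.79, Eif2ak2, which encodes the kinase PKR, by -0.69, and Oas1b, an oligoadenylate synthetase family member, by -1.41. Parp9 and Parp14, which act in ADP-ribosylation, changed by -0.77 and -1.03. Parp9 overlaps Dtx3l on the other strand, and the counting kept no strand, so their reads may be shared. Not every well-known member passed: Isg15, a ubiquitin-like modifier, was at -1.26 ± 0.41 (edgeR adjusted p = 0.2) and Irf7 at -0.48 ± 0.34 (edgeR adjusted p = 0.51).

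Of 27 tested genes induced by interferon gamma 7 fell, all of them immunity-related GTPases, and 0 rose. The median of the list, which also holds guanylate-binding proteins, chemokines and transcription regulators, was -0.84. Without libraries 860 and 861, 12 fell and the median was -1.03. Igtp (chromosome 11), a GTPase that acts on vacuoles holding pathogens, was at 15.4, 23.5 and 50.6 CPM in treated and 24.6, 90.0 and 124 CPM in vehicle livers. Again every vehicle liver but library 1148 lay above the highest treated liver, and the log2 fold change was -1.65 ± 0.24 (edgeR adjusted p = 0.00138). Its relatives Irgm1 (-1.12 ± 0.18), Irgm2 (-1.53 ± 0.26), Ifi47 (-1.11 ± 0.18), Iigp1 (-1.05 ± 0.17) and Tgtp1 (-1.73 ± 0.38) fell too. Tgtp1 and Tgtp2 are close paralogs and may share reads.

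Interferon levels were lower with ruxolitinib in both batches, whereas leukocyte levels had a higher median with it in the first and a lower one in the second. The mean level of the 58 type I genes, as log2(CPM + 1), had a median of 4.25 in treated and 5.05 in vehicle livers of the first batch, with no overlap. In the second batch the medians were 4.38 and 5.19, and the groups overlapped, with 4 of 10 treated livers below every vehicle liver. The 12 leukocyte markers had medians of 6.29 and 4.40 in the first batch and 3.62 and 4.05 in the second. Over both batches the leukocyte level ran from 2.91 to 7.60 in treated and 3.53 to 4.69 in vehicle livers, and 0 of its 12 members were called by edgeR. Kupffer cell markers ran from 3.80 to 7.81 and from 3.93 to 5.16. Cd3e, which marks T cells, was at 0 CPM in library 1158. Without libraries 860 and 861 the leukocyte level had a median of 3.74 in treated and 4.16 in vehicle livers. These medians pool batches that hold different shares of each group. Without the same libraries the first batch, with 2 treated livers left, had medians of 4.94 in treated and 4.40 in vehicle livers. The second batch, unchanged, had the lower treated median given above. The part of these cells in the interferon result was not tested.

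**Figure D2:**
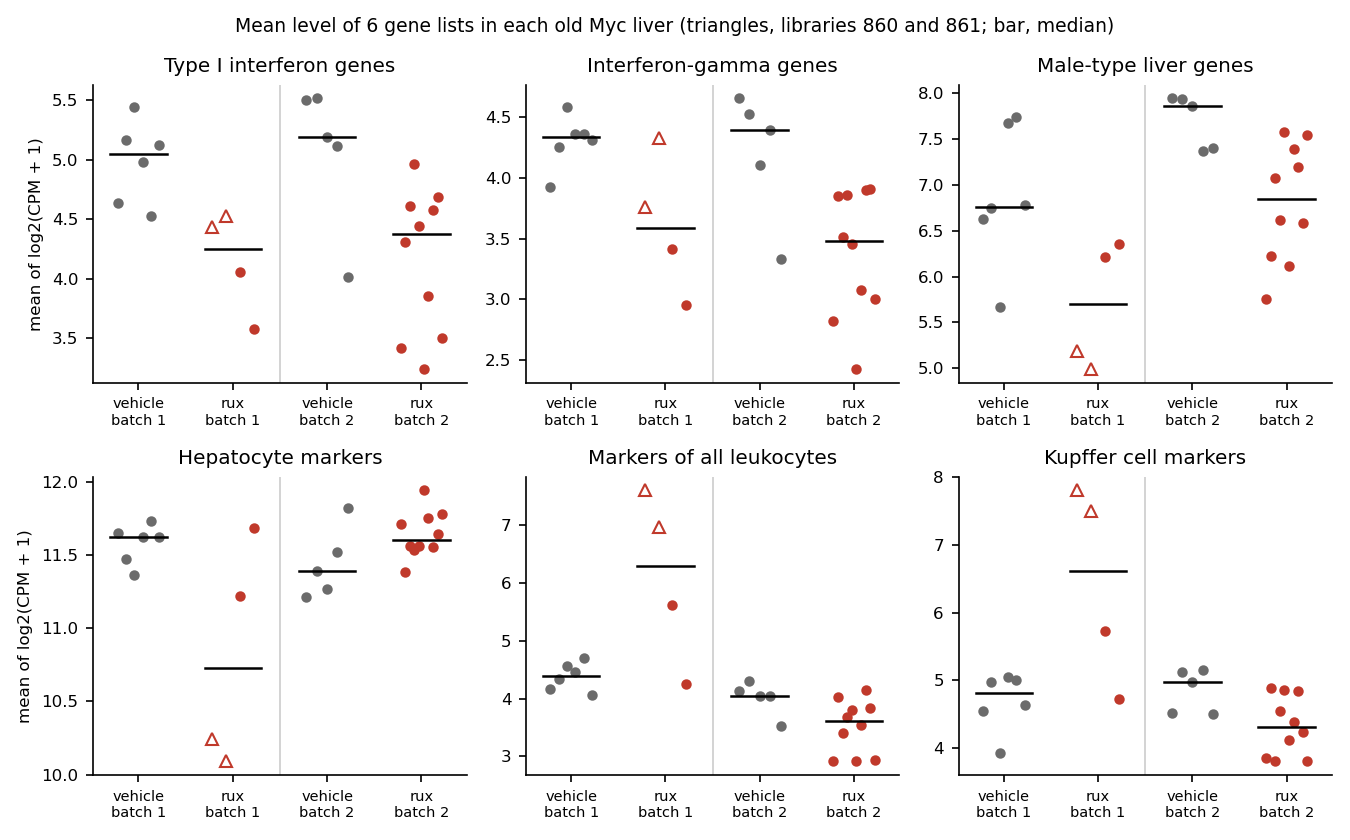
Mean log2(CPM + 1) of 6 gene lists in each of the 25 old Myc livers, by treatment and batch, with libraries 860 and 861 as triangles and medians as bars. Both interferon lists have lower medians with ruxolitinib in each batch, while leukocyte and Kupffer markers are higher with it in the first batch and lower in the second.

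Promoters of the genes that fell were searched for the letters of 2 motifs, in the 250 bases before the start site given by RefSeq (GRCm38.p6). The interferon-stimulated response element was searched as GAAA, any 2 bases and GAAA again, and the STAT site as TTC and GAA with any 3 or 4 bases between them, on both strands, and the motifs may overlap each other. Of 9970 tested genes with a matched promoter 2.88% held the first motif and 10.3% the second. Of the 69 genes that fell 47 had a promoter, of which 34% held the first motif (16) and 31.9% the second (15). Among interferon-list genes that fell the first motif was in 11 of 22, and among growth hormone-list genes in 0 of 4. Of the 21 fallen genes on neither that had a promoter, 5 held it (23.8%). The second motif was in 7 of 22 and 1 of 4, and in 33.3% of the genes on neither. A match is a description of letters and not a bound site.

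The promoters below are shown because they belong to genes of small p in which the motif letters were found. Capitals mark the interferon motif in the first 4 and the STAT motif in Keg1, and each is written 5′ to 3′ toward the start of the gene. In Irgm1 the matches begin 30 and 24 bases before the start and overlap, in Igtp the match begins 34 bases before it, in Ifit1 104 and 85, and in Stat2 222. In Keg1, named for its expression in kidney, the matches begin 173 and 107 bases before the start. Keg1 was picked from genes outside the interferon lists. Igtp and Stat2 each hold 1 STAT match too, which is not marked. Positions in the same order as the lines are chr11:58199306-58199555 (plus strand), chr11:48871421-48871670 (minus strand), chr19:34640639-34640888 (plus strand), chr10:128270248-128270497 (plus strand) and chr19:12695540-12695789 (plus strand).
Igtp: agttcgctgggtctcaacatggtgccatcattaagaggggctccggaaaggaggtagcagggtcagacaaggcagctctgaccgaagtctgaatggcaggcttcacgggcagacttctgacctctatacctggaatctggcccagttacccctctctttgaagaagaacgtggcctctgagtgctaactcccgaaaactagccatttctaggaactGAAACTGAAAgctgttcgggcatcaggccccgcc
Irgm1: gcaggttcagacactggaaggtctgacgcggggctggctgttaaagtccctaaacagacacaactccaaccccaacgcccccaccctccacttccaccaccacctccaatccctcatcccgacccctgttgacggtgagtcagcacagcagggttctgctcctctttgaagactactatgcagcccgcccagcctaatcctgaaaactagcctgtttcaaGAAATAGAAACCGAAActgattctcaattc
Ifit1: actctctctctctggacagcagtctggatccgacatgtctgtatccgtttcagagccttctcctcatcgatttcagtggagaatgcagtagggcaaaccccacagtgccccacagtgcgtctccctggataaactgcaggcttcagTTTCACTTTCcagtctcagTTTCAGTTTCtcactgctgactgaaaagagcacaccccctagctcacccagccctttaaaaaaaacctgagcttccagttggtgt
Stat2: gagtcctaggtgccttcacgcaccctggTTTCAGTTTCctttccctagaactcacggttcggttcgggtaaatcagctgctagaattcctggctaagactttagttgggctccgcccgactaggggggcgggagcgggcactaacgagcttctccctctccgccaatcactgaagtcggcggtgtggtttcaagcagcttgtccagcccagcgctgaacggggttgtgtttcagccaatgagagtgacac
Keg1: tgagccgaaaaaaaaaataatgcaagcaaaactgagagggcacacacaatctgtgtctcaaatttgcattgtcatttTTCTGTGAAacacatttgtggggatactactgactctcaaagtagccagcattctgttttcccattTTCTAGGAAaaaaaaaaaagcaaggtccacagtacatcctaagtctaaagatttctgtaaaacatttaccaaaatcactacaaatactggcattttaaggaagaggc

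In the growth hormone arm, 3 male-type genes fell and the female-type genes did not pass the threshold. Male-type genes depend on the pulses of growth hormone that activate STAT5 in male liver, and 3 of 20 tested members fell (Serpina4-ps1, Nudt7 and Hsd3b5), with a list median of -0.80. The median was -0.61 without libraries 860 and 861. Hsd3b5, a male-specific steroid dehydrogenase, was at 0.117, 0.711 and 26.4 CPM in treated and 0.439, 25.3 and 64.5 CPM in vehicle livers. The ranges overlapped widely, since library 866 of the vehicle group held 0.439 CPM, and the log2 fold change was -3.25 ± 0.73 (edgeR adjusted p = 0.0344). It was -2.93 without libraries 860 and 861 and no longer called (edgeR adjusted p = 0.0596). Serpina4-ps1, a male-biased serpin pseudogene, was at 0, 3.29 and 11.9 CPM in treated and 0.527, 19.2 and 54.6 CPM in vehicle livers. In the second batch its groups did not overlap, and the log2 fold change over both was -2.70 ± 0.53 (edgeR adjusted p = 0.00979).

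Nudt7, a peroxisomal hydrolase of coenzyme A, fell by 1.29 ± 0.26 on the log2 scale (edgeR adjusted p = 0.0117). Its highest treated value was 190 CPM and its lowest vehicle value 105 CPM, and 9 of 14 treated livers lay below all vehicle livers. Male-type genes that did not pass included Slco1a1, a bile salt and steroid uptake carrier (-1.72 ± 0.45, edgeR adjusted p = 0.094), and Elovl3, a fatty acid elongase (-1.44 ± 0.42, edgeR adjusted p = 0.16). Reads of Mup genes may be shared among near-identical copies. Of 17 female-type genes 0 were called by edgeR, with a median of 0.50 and of 0.81 without libraries 860 and 861.

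Of the 18 tested members of the growth hormone receptor and insulin-like growth factor axis, Socs2, Cish and Igfals fell and Irs1 rose. Igfals, the subunit that keeps circulating IGF1 in a stable complex, was at 23.3, 50.3 and 90.1 CPM in treated and 66.8, 83.6 and 103 CPM in vehicle livers. Its lowest treated value was in library 861, and its log2 fold change of -0.77 ± 0.17 (edgeR adjusted p = 0.0314) was -0.57 without libraries 860 and 861 (edgeR adjusted p = 0.0603). Igf1 itself was at -0.38 ± 0.12 (edgeR adjusted p = 0.2) and the receptor Ghr at -0.35 ± 0.19 (edgeR adjusted p = 0.39). Hepatocyte markers were also lower in libraries 860 and 861, and their part in the values of Igfals and Hsd3b5 was not tested.

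Other genes that fell included regulators of liver growth and genes outside the lists. Egfr, the epidermal growth factor receptor, was at 98.2, 150 and 404 CPM in treated and 111, 339 and 509 CPM in vehicle livers. In the second batch 9 of 10 treated livers were below every vehicle liver, and the log2 fold change over both was -1.03 ± 0.20 (edgeR adjusted p = 0.00756). It was the only called member of 18 growth factor receptors and ligands tested, whose median was -0.10. Onecut1 (HNF6), a hepatocyte transcription factor, changed by -1.70 ± 0.40 (edgeR adjusted p = 0.0498) and was not called without libraries 860 and 861.

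Keg1 was at 12.2, 67.3 and 106 CPM in treated and 87.7, 150 and 205 CPM in vehicle livers. Of the treated livers 11 were below every vehicle liver, and the log2 fold change was -1.62 ± 0.27 (edgeR adjusted p = 0.00316). Paqr9, a membrane protein of the progestin and adipoQ receptor family, separated the groups fully in the second batch (74.2 to 131 against 137 to 155 CPM) and changed by -0.57 ± 0.13 (edgeR adjusted p = 0.0381). Adar, an RNA-editing enzyme, changed by -0.85 ± 0.15, and Znfx1, a helicase that senses viral RNA, by -0.60 ± 0.12. Both overlap a gene on the other strand. Gvin1, a very large interferon-inducible GTPase, changed by -1.56 ± 0.32, but its counts differed by 0.0341% from those of the overlapping Gm4070. Chac1, a glutathione-degrading enzyme of the stress response, changed by -1.52 ± 0.36 (edgeR adjusted p = 0.0462), and not past the threshold without libraries 860 and 861.

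The 6 genes that rose were Irs1, Agpat1, D1Ertd622e, Grk3, Egln3 and Sipa1l2. Irs1, the adaptor of the insulin and IGF1 receptors, was at 17.4, 32.5 and 40.0 CPM in treated and 16.4, 21.4 and 26.2 CPM in vehicle livers. In the second batch all 10 treated livers (29.5 to 40.0 CPM) were above all 5 vehicle livers (21.4 to 26.2 CPM). Its log2 fold change was 0.39 ± 0.09 (edgeR adjusted p = 0.0285) and 0.50 without libraries 860 and 861 (edgeR adjusted p = 0.00116).

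Agpat1, an enzyme of phospholipid synthesis, was at 25.6 to 45.1 CPM in the 4 treated and 17.5 to 25.3 CPM in the 6 vehicle livers of the first batch. In the second batch it was lower in both groups, at 10.94 to 15.6 CPM in treated and 8.29 to 11.97 CPM in vehicle livers, without overlap between the batches among treated livers, and the log2 fold change with the batch term was 0.52 ± 0.10 (edgeR adjusted p = 0.0135). Egln3, an oxygen-sensing prolyl hydroxylase, changed by 0.50 ± 0.12 (edgeR adjusted p = 0.0431). Grk3, a kinase of G protein-coupled receptors, changed by 0.92 ± 0.21 with its highest value of 30.6 CPM in library 860, and by 0.59 without libraries 860 and 861 (edgeR adjusted p = 0.179). Sipa1l2 was highest in library 861 and likewise lost the call (0.45, edgeR adjusted p = 0.204).

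Lists outside the interferon and growth hormone arms held few or no called genes. Genes for cell division had 0 of 40 members called by edgeR, although all 40 had a positive fold change and the median was 0.82, and without libraries 860 and 861 the median was 0.49. Of 42 Myc targets for ribosome production and nucleotides 0 were called and the median was -0.08. Acute-phase genes, many of them STAT3 targets, had 0 of 28 called and a median of 0.26. The treated livers of the second batch were split on the mean log2(CPM + 1) of these genes: 4 of 10 (libraries 1149, 1150, 1154 and 1158) lay above every vehicle liver and 5 below every one, with a treated median of 7.75 against 8.03. Their serum amyloid gene Saa1 had a lower median in treated (54.7 CPM) than in vehicle livers (73.8 CPM), a highest treated value of 2217 CPM, and a log2 fold change of 1.74 ± 0.86 (edgeR adjusted p = 0.36). Of 18 genes of MHC class I and its peptide supply 0 were called with all libraries, 16 had a negative fold change and the median was -0.20.

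**Figure D3:**
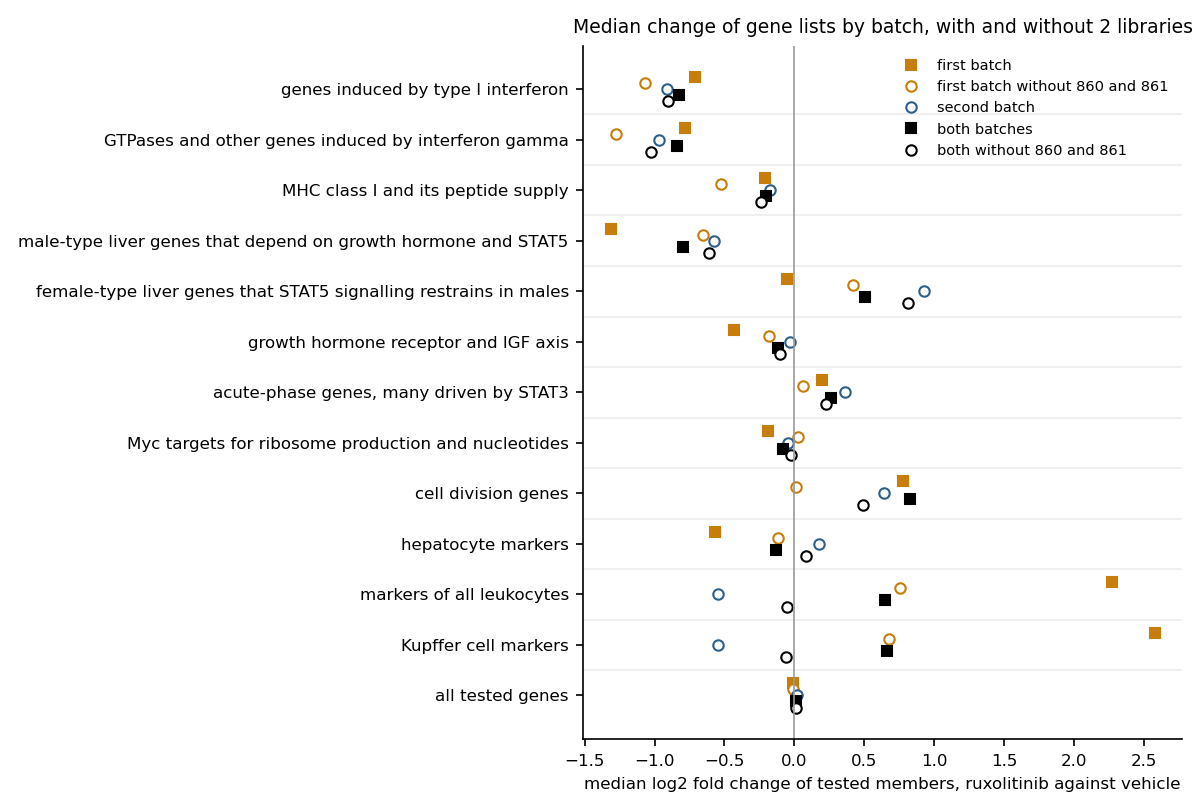
Median log2 fold change of the tested members of 12 gene lists and of all tested genes, ruxolitinib against vehicle, for each batch and for both, with all libraries (squares and the second batch) and without libraries 860 and 861. The type I list has a median of -0.83 with and -0.91 without them, while leukocyte markers move from 0.65 to -0.05.

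Without libraries 860 and 861 102 genes passed, 40 of them on the interferon lists. Of 13868 tested genes 95 fell (0.685%) and 7 rose (0.0505%), and 56 genes were called both ways, 74.7% of the first set and 54.9% of the second. The 46 genes gained comprised 42 that fell and 4 that rose, and 12 of them belonged to the interferon lists. Helz2, a helicase that acts as a nuclear receptor coactivator, moved from -0.48 (edgeR adjusted p = 0.0607) to -0.69 (edgeR adjusted p = 0.00116). Tap1, which feeds peptides to MHC class I, moved from -0.54 to -0.79 (edgeR adjusted p = 0.00506).

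Gzmb, a granzyme of cytotoxic lymphocytes, moved from -0.64 to -1.93 (edgeR adjusted p = 0.00574). In the second batch Gzmb was at 0 to 0.436 CPM in treated and 0.648 to 1.26 CPM in vehicle livers, with no overlap, while library 861 held 7.62 CPM. Oas2, an oligoadenylate synthetase, moved from -0.97 to -1.69 (edgeR adjusted p = 0.00622), Gbp4 from -0.84 to -1.10 and Gbp5, both guanylate-binding proteins, from -0.82 to -1.29. Cyp2b10, an enzyme that breaks down drugs and is induced through the receptor CAR, rose, by 2.25 (edgeR adjusted p = 0.0271), and was at 1.86 with all libraries (edgeR adjusted p = 0.154). It was named after its values were seen, as was Il6st as a gained call. The 19 genes lost included Cish, Rsad2, Oasl1, Hsd3b5, Igfals, Onecut1, Chac1 and Grk3.

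The number of genes called in the first batch alone, and their direction, depended on libraries 860 and 861. In the first batch with them 798 of 13476 genes were higher (5.92%) and 109 lower (0.809%), and 10 of 12 leukocyte markers were among those higher. Without them, with 2 treated and 6 vehicle livers left, 9 of 13613 genes passed (0.0661%), among them Igtp, Irgm2 and Tgtp1. In the second batch alone 9 of 13735 passed (0.0655%), among them Socs2 (-2.92), Irs1 (0.49), Ikzf4, an Ikaros family factor (-1.58), and Helz2 (-0.61).

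The drug difference itself differed between batches for 2290 of 14077 genes (16.3%), of which 1615 were lower in the second batch than in the first (11.5%). Markers of macrophages led: Vsig4, a complement receptor of Kupffer cells, differed by -3.90 ± 0.54 and Itgam, an integrin of myeloid cells, by -5.71 ± 0.80 (edgeR adjusted p = 0.000642 for both). In the first batch Vsig4 was at 983, 675, 221 and 76.9 CPM in treated livers and 23.6 to 67.0 CPM in vehicle livers. In the second it was at 15.7 to 35.2 and 25.0 to 39.5 CPM. Without libraries 860 and 861 edgeR called 0 genes for this difference, with 1320 at an unadjusted p below 0.05, and DESeq2 called 48. These fits held only 2 treated livers of the first batch, and the part of the smaller group in the lower counts was not tested. Leaving out library 860 alone gave 945 genes, library 861 alone 977 and library 869 alone 4576. Among the 75 called genes 4 passed this term, Mx2 (1.78), Irgm2 (1.34), Nudt7 (1.25) and Stat2 (0.50), each with the larger decrease in the first batch.

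**Figure D4:**
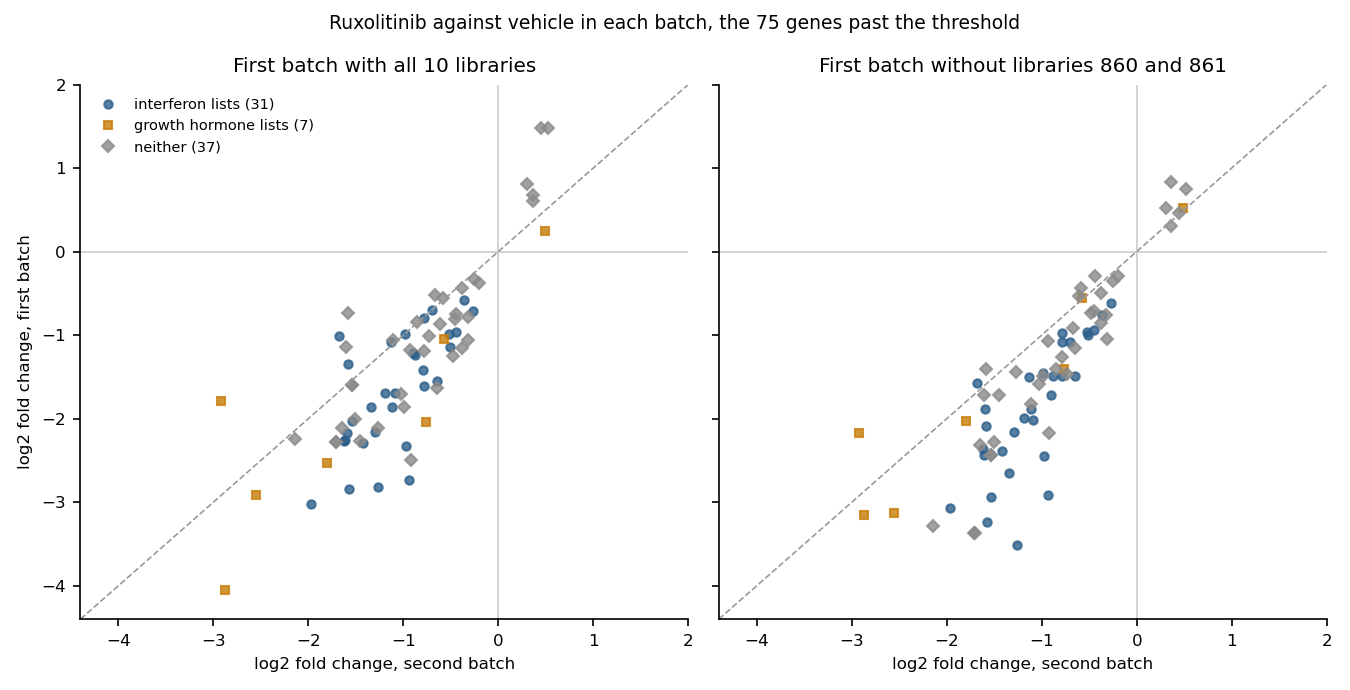
Log2 fold change of the 75 called genes in the second batch (x axis) and in the first batch (y axis), with all 10 libraries of the first batch on the left and without libraries 860 and 861 on the right; the dashed line marks equal values. The genes were chosen by the fit over both batches, so their position in the quadrants is no test. Of the 75, 63 have the larger change in the first batch with all libraries. The share over all tested genes is not given, so this count stands without a comparison.

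The same comparison in old livers with mApple had lower interferon genes as well, and no gene passed the test of a difference between the vectors. The product term of vector and drug called 0 of 14046 genes by edgeR, with 735 at an unadjusted p below 0.05, and 0 by DESeq2. In mApple livers 53 of 13554 genes passed (0.391%), and 29 of them were among the 75, which is 38.7% of the 75 and 54.7% of the 53. These 2 comparisons share no libraries, and all 75 genes had the same sign in mApple livers. The share of all tested genes with the same sign in both is not given, so this count stands without a comparison. Alb took 3.22% of counts in treated mApple library 864, which was kept, against 9.66% to 14.3% in the other treated mApple livers. Of the 29, 22 were on the interferon lists and 0 on the growth hormone lists. Socs2 was at -1.95 in mApple livers (edgeR adjusted p = 0.0777), Cish at -2.30 (edgeR adjusted p = 0.21) and Hsd3b5 at -1.94 (edgeR adjusted p = 0.54), and their Myc-minus-mApple terms did not pass. A term that misses the threshold does not show that the drug acted alike in both.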

How the data were processed

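Expected counts (estimated counts, in steps of 0.5) per gene were made and deposited by the authors: per the file headers HOMER counted reads over exons with 1 transcript per gene and no strand setting, and per the submitters' processing notes reads were aligned with STAR to GRCm38 (mm10). The deposited counts were rounded to whole numbers. Levels are CPM with TMM scaling. The range of depth over the libraries is given with the results, and standard errors carry its effect on precision.

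Groups came from the sample titles. Genes were tested with edgeR 4.0.16 in R 4.3.3 (filterByExpr on the design with a minimum count of 10, quasi-likelihood F test, batch as covariate, two-sided, Benjamini-Hochberg, threshold 0.05). Product terms of drug with batch and of drug with vector were fitted in the same way. DESeq2 1.42.0 and limma 3.58.1 (voom with quality weights) were alternatives, besides RLE scaling, keeping low counts, dropping the batch term, single batches and leaving libraries out. A step left out libraries 860, 861 and 868 after the data were seen. On simulated counts for the drug comparison (13749 genes) 88% of genes with a log2 change of 1 and 99% with 2 were found. For the batch term the shares were 46% and 87%. The simulated libraries had the same mean per gene apart from the planted changes, so no batch difference and no leukocyte-rich libraries. The changed genes were drawn from those with a mean above 1 CPM. The shares are therefore not those of the real comparison.

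Groups, gene lists (36) and tests were chosen with earlier results of these data known, so lists are described by counts and medians without a test of their own. Genes named are Myc, all called genes except predicted ones, RIKEN clones and antibody or T cell receptor segments, the members of 5 signalling lists, the 4 members of smallest p in each other list, cell type markers, the 10 genes of smallest p called only without libraries 860 and 861, and the 5 of smallest p in each product term. Some results that this rule would name are not reported here. Other genes are said to be named after their values were seen. The smallest chi-squared per degree of freedom between libraries of a group and batch was 14.7, so no library was a copy of another.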

Additional observations from a re-analysis of the deposited data

Results flagged for a closer look

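Library 1148, a vehicle liver of the second batch, had the lowest interferon genes of its group and lay far from its 4 companions. On the log2(CPM + 1) scale Igtp was at 4.68 there against 6.21 to 6.63 in the others, Stat2 at 6.25 against 6.64 to 6.77 and Irf9 at 4.83 against 5.61 to 5.76. The mean level of the type I interferon genes was 4.01 there against 5.11 to 5.52. Without library 1148 the drug comparison called 83 genes in place of 75.

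Library 870, a vehicle liver of the first batch labelled Myc, had Myc at 2.98 on the same scale against 5.64 to 7.11 in the other 5, and without it 60 genes were called. Library 1150, a treated liver of the second batch, had the highest level of neutrophil markers, at 1.13 against 0.39 to 0.62 in the other 9. A single far library was looked for in 92 sets of 4 to 10 livers, and chance alone flags some of that many.

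The difference between the batches in the response to the drug passed the test for 2290 genes. Among genes named here, the drug effect in the second minus the first batch was 1.34 for Irgm2, 0.50 for Stat2, 1.25 for Nudt7 and 1.78 for Mx2, which fell more in the first batch. It was -2.09 for Oas2, -2.98 for Gzmb and -1.86 for Ifi211, whose fold changes were below 0 in the second batch and above 0 in the first with libraries 860 and 861 in it. None of these differences passed the edgeR test without libraries 860 and 861, a fit with only 2 treated livers in the first batch.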

How the results depend on the processing

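The count of 75 called genes was 168 with DESeq2, 201 with limma voom, 44 with no batch term, 907 in the first batch alone, 9 in the second batch alone, 9 in the first batch without libraries 860 and 861, 170 with DESeq2 without those libraries and 113 with all 42 old libraries in a single fit. Of calls by edgeR 8% were higher with the drug, against 31.5% with DESeq2, 30% with no filter on low counts and 27.4% with 42 libraries. Leaving out 1 library at a time gave 48 (without library 1145) to 83 genes, and 43 of the 75 were lost with none of these. Of the others, 20 were lost with more than 10 of the 25 libraries left out singly. Among them were Onecut1 (lost with 22), Paqr9 (19), Egln3 (17) and Eif2ak2 (11). The batch term went from 2290 genes to 0 without libraries 860 and 861 by edgeR and to 48 by DESeq2, and to 945 to 4576 with 1 library left out (945 without 860, 977 without 861, 4576 without 869). The vector term stayed at 0 in all 7 alternatives run. In the first batch alone the fold change of Oas2 was 0.24, of Gzmb 0.91 and of Ifi211 0.10, the opposite sign to both batches. Myc, at -0.06, was at 0.22 in the first batch without libraries 860 and 861, at 0.0278 without those 2 in both batches, at 0.0294 with DESeq2 without them and at 0.0535 without libraries 860, 861 and 868, and ran from -0.155 (without library 870) to 0.0247 (without library 867) with 1 library left out. The causes were not tested. No paired analysis was possible because the library numbers are unique to each sample and the groups share none. Depth limits genes with few counts, whose standard errors are widest.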

Other observations

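Vehicle libraries 866 and 1148 were high in different pathways, but other vehicle livers were high in both. On the log2(CPM + 1) scale the type I interferon list was at 5.50 in library 1144 and 5.52 in library 1145, against a vehicle median of 5.12. The male-type list was at 7.95 and 7.93 in the same libraries, against a vehicle median of 7.40. Library 866 had the highest Ifit1 (98.3 CPM) and Igtp (124 CPM) of the 11 vehicle livers, and the lowest Socs2 (3.87 CPM), Cish (8.26 CPM), Hsd3b5 (0.439 CPM) and Serpina4-ps1 (0.527 CPM). Library 1148 had the lowest Ifit1 (5.96 CPM) and the highest Socs2 (42.8 CPM) and Igfals (103 CPM). Among treated livers library 1152 had the highest Socs2, Cish, Ifit1 and Onecut1, at 7.18, 29.7, 16.2 and 18.6 CPM. Library 1154 had the lowest Socs2, Cish and Ifit1, at 1.55, 0.717 and 2.15 CPM, the highest mean level of acute-phase genes (9.68 on the log2(CPM + 1) scale) and the highest Cyp2b10 (1330 CPM). These values were picked after they were seen.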
